A study of Rattus norvegicus with 12 samples.

Results

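The vehicle control of a rat hepatocyte toxicity study is described here on its own: 3 arrays, chosen by their titles, which mark them as DMSO replicates 1 to 3, of 12 arrays in all. The cells were primary hepatocytes from male Sprague Dawley rats, bought frozen from a commercial supplier, thawed, kept in culture for 24 h and then given DMSO, the solvent used for the test compounds, for another 24 h, so that RNA was taken after 48 h of culture. The other 9 arrays carried cells given 1 of 3 compounds and enter no result. The study calls its replicates independent experiments. The labels do not say whether they came from different rats or from the same lot of frozen cells, nor whether cells of several rats were pooled, so the spread between the arrays may be technical. All 3 arrays lay on 1 slide.

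Hepatocytes make most proteins of blood plasma, build and break down sugars, amino acids and lipids, make bile, and clear drugs and hormones through oxidation, conjugation and export. These functions depend on a set of liver-enriched transcription factors and on signals of the intact liver, such as growth hormone, hepatic nerves, the blood gradient along the lobule and contact with Kupffer, stellate and endothelial cells. Hepatocytes that are isolated, frozen, thawed and plated on plastic are known to lose some of these transcripts within days and to gain cytoskeletal and stress transcripts.

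RNA was labelled with Cy3 and read on a 1-colour Agilent rat array. Each value is the log2 signal of a probe minus the 75th percentile of its array, so a value of 0 is a probe brighter than 75% of the probes, and a value 1 unit higher is double the light. The order of genes is an order of probe signals, which also depends on how well each probe binds, and not of transcript numbers: among 2313 genes with at least 2 probes above background on all 3 arrays, the 2 brightest probes of a gene differed by a median of 1.72 log2 units, and 644 genes differed by more than 3. A gene is given by its brightest probe. It is called bright when that probe was among the brightest 5% of all probes (4.52 or higher), dim when it was above background on all 3 arrays but under the median of such probes (-0.16), and middling in between. Just inside the bright class was apolipoprotein M (Apom, mean 4.54), and just outside it was the pregnane X receptor Nr1i2 (mean 4.51).

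Of 16676 genes with a named probe, 10521 were above background on all 3 arrays, which is 63.1% of the named genes. Another 572 were above it on 1 or 2 arrays, and 5583, or 33.5%, on 0 arrays. Bright genes numbered 1247, or 7.48%. Between 52.7% and 55.5% of the probes of an array were above background and 0 spots were saturated. The median SD of a probe between the 3 arrays was 0.0608 log2 units.

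The brightest named genes were those of the ribosome, of iron storage and of plasma proteins. Ribosomal protein genes made up 23 of the 40 brightest and 47 of the 100 brightest, with Rpl41 at the top (10.03, 9.96 and 9.94 in DMSO replicates 1, 2 and 3, the order used throughout). Rn45s, the precursor of ribosomal RNA, followed at a mean of 9.64. The ferritin chains Ftl1 and Fth1, which store iron, averaged 9.45 and 8.96. Among the 100 brightest, 14 stood in a list of secreted proteins, 3 in an enzyme list, 1 in a transporter list and 0 in a list of receptors or transcription factors. Of the 100 brightest probes, 22 had no gene symbol in the table used and are not described.

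The hepatocyte label was met by its secreted markers. Transthyretin (Ttr), the carrier of thyroid hormone and of retinol-binding protein, gave 9.36, 9.30 and 9.24. Albumin (Alb), the main plasma protein, gave 8.47, 8.41 and 8.39. Apolipoprotein A1 (Apoa1), the core protein of high-density lipoprotein, gave 8.31, 8.32 and 8.25. All were bright on each array, and the 3 arrays lay close together.

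**Figure D1:**
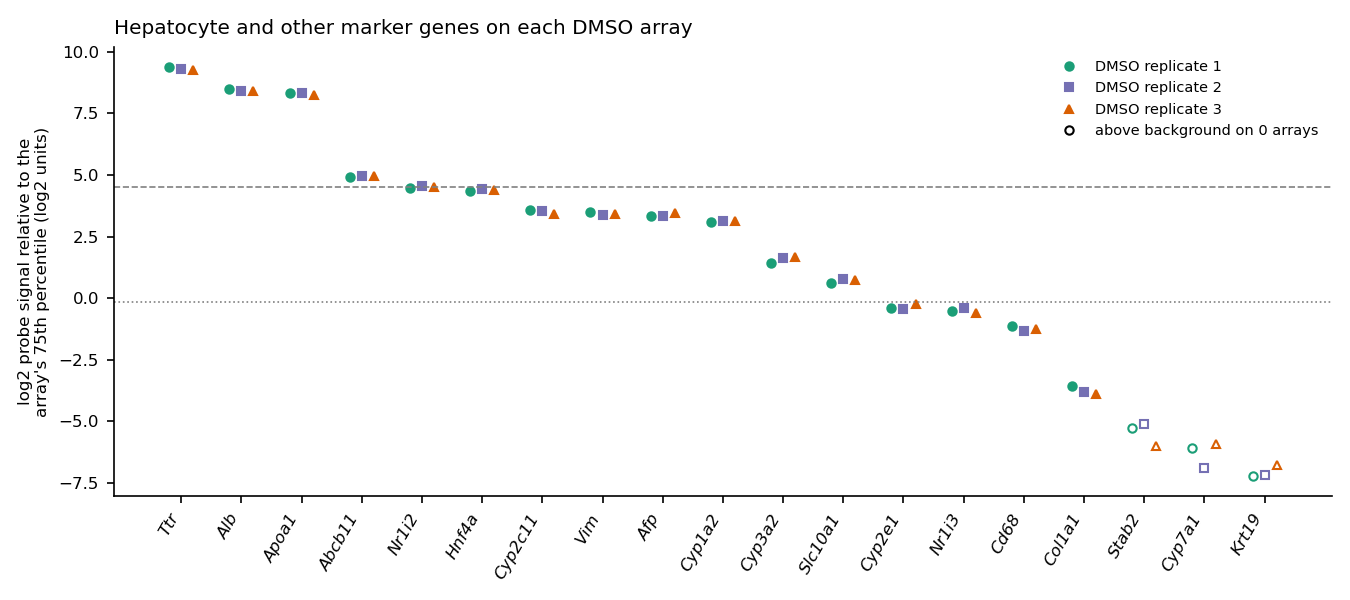
Log2 probe signal relative to the 75th percentile of the array (y axis, log2 units) of 19 genes in order of their mean, with 1 point for each DMSO replicate. The dashed line marks the brightest 5% of probes and the dotted line the median of probes above background on all 3 arrays. Ttr, Alb, Apoa1 and Abcb11 lie above the dashed line, and Stab2, Cyp7a1 and Krt19, drawn open, were above background on 0 arrays.

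Of the plasma carriers and binding proteins, 19 of 19 with a probe were above background on all 3 arrays and 12 were bright, against 63.1% and 7.48% of all named genes. Besides Ttr and Alb these were orosomucoid (Orm1, mean 9.34), haptoglobin (Hp, which binds free haemoglobin, 9.22), transferrin (Tf, the iron carrier, 8.94) and the precursor of the alpha-1-microglobulin and bikunin proteins (Ambp, 8.56). The corticosteroid carrier Serpina6 was middling (0.69) and the acid-labile subunit of the circulating IGF complex, Igfals, was dim at -1.92, -1.86 and -1.88. Igfals is known to depend on growth hormone. Alpha-fetoprotein (Afp), the fetal counterpart of albumin, was middling at 3.35, 3.35 and 3.45.

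Of the lipoprotein genes, 14 of 20 were bright and 19 of 20 above background, against 7.48% and 63.1% of all named genes. Apoe, Apoc3, Apoa4, Apoa1 and Apoc1 had means of 9.14, 8.79, 8.79, 8.30 and 8.04. Apob, the structural protein of very low-density lipoprotein, gave 5.91, 6.01 and 5.95. Mttp, which loads lipid onto Apob, was middling at 1.49. The phospholipid transfer protein Pltp was above background on 0 arrays.

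Blood clotting and protease inhibitor genes formed a similar group. All 21 clotting and fibrinolysis genes with a probe were above background and 11 were bright, against 63.1% and 7.48% of all named genes. The bright ones included kininogen (Kng1, 8.49), prothrombin (F2, 7.36) and the 3 fibrinogen chains Fgb (6.70), Fgg (6.37) and Fga (5.76). Coagulation factor VII (F7) was only middling at 0.27, 0.34 and 0.20, and protein S (Pros1) was dim at -2.26, -2.35 and -2.23. Of the protease inhibitors, 11 of 16 were bright, led by alpha-1-antitrypsin (Serpina1, 8.20, 8.26 and 8.23). Tfpi2, an inhibitor of serine proteases, was above background on 0 arrays.

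Complement genes were mostly middling. Of 20 genes, 18 were above background on all 3 arrays and 2 were bright, against 63.1% and 7.48% of all named genes. The bright ones were C3 (7.27, 7.46 and 7.36) and the regulator Cfi (6.26). C2, Cfb, C1r and C4b had means from 4.21 to 4.49. The mannose-binding lectins Mbl1 and Mbl2 averaged 0.88 and -0.01. C1qa, which in liver comes from macrophages, was above background on 1 array, and Cfd, known chiefly from fat tissue, on 0.

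Of the acute phase and antimicrobial genes, 3 of 12 were bright, against 7.48% of all named genes. Hepcidin (Hamp), the hormone that blocks iron release into plasma, was the fourth brightest named gene at 9.54, 9.50 and 9.45. Saa4, a constitutive serum amyloid A, averaged 7.82. Lipocalin 2 (Lcn2), which binds bacterial siderophores, was middling at 3.19, 3.56 and 3.53, lowest in DMSO replicate 1. C-reactive protein (Crp, 2.54) and the lipopolysaccharide-binding protein Lbp (2.88) were middling, and the secreted phospholipase Pla2g2a was above background on 0 arrays.

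Growth factors, hepatokines and chemokines were above background on all 3 arrays in 76.9% of cases. That was the lowest share of the secreted lists but over the 63.1% of all named genes. Of 39 members, 6 were bright, beside 7.48% of all named genes, 13 middling and 11 dim. Another 8 were above background on 0 arrays, beside 33.5% of all named genes. The bright ones were Lect2 (7.01, 6.98 and 7.02), angiotensinogen (Agt, 6.65), Igf1 (5.68), the macrophage-stimulating protein Mst1 (5.52), connective tissue growth factor (Ccn2, 5.52) and Igfbp1 (4.82). Igf1, the main effector of growth hormone, gave 5.67, 5.69 and 5.69. Fgf21, a hormone of fasting, was middling at 1.72, 1.67 and 1.64. Hgf, Il6, Bmp10, Gdf2, Ereg, Epo, Angpt1 and Igfbp5 were above background on 0 arrays.

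Short stretches upstream of the start sites are shown for a few bright secreted genes, picked because they hold a motif. The motifs were GTTAAT, known from liver promoters, and the TATA box, which is not particular to liver. The sequences are RefSeq promoters of the GRCr8 build, written 5′ to 3′ along the gene, with the motif in capitals. The letters GTTAAT were searched on both strands, and the TATA box as TATAAA on the gene's strand, in the 250 bases before and 50 after each start.

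Alb, chr14:17907029-17907088, GTTAAT 82 bases before the start site: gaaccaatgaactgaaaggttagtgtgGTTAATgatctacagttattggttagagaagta

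Fgb, chr2:170700933-170700992, GTTAAT on the other strand, 90 bases before the start site: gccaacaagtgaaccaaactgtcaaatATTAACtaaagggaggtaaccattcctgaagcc

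Orm1, chr5:81788447-81788506, TATAAA 35 bases before the start site: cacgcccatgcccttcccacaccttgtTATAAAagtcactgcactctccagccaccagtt

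GTTAAT stood in 15 of the 45 bright secreted genes with a promoter in the table (33.3%), in 5 of 74 of the 100 brightest named genes (6.76%) and in 7.37% of all 27457 promoters. TATAAA stood in 20% of the same 45, in 17.6% of the 74 and in 9.08% of all promoters. These are shares of letters in a fixed window, and say nothing of which sites are used.

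Among the enzymes, 245 of 259 with a probe were above background on all 3 arrays, 94.6% against 63.1% of all named genes. Bright were 70, or 27.0% against 7.48% of all named genes. Cytochromes P450, the oxidases of drug and steroid metabolism, were detected in 43 of 45 cases (with their partners Cyb5a, Cyb5r3 and Por included) but were mostly middling, with 8 bright. Cyp2d5 gave 6.43, 6.41 and 6.28. Cyp3a23-3a1, a main target of the pregnane X receptor, gave 5.58, 5.83 and 5.75. Both spread more between arrays than the typical probe of their brightness. In the brightest of 5 equal groups of detected probes the median SD was 0.0330, and 95% of probes stayed under 0.0780. The median SD of the detected P450 group, most of it dimmer, was 0.0733.

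The P450 genes for which rat liver is best known were not all among the bright ones. Cyp2c11, the main male form, gave 3.57, 3.52 and 3.43. Cyp1a2, which oxidises caffeine and aromatic amines, gave 3.09, 3.15 and 3.14, and its relative Cyp1a1, low in untreated liver, averaged 1.81. Cyp3a2, another male form, gave 1.43, 1.63 and 1.65. Cyp2e1, the ethanol-inducible form of pericentral hepatocytes, was dim at -0.40, -0.45 and -0.25, and so was Cyp2b2, the form induced by phenobarbital (-0.97, -1.04 and -1.28). Cyp2a3, a form known from the nose and lung, was above background on 0 arrays. P450 genes have close copies in the rat, and whether a probe also reads a copy was not tested.

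The label male was checked with transcripts of the sex chromosomes and with enzymes that differ between the sexes in rat liver. The Y-linked Eif2s3y (0.71, 0.61 and 0.66) and Ddx3y (-0.50, -0.38 and -0.51) were above background on all 3 arrays. Xist, the RNA that coats the inactive X chromosome, was above it on 0, as were the Y-linked Uty and Usp9y. Obp3, a lipocalin of the alpha-2u-globulin family that male rats excrete in urine, gave 9.06, 9.01 and 8.98, and Mup4 gave 8.06, 8.02 and 8.01. Cyp2c12, known as the female form, also had a bright probe, at 4.55, 4.72 and 4.77, with a second probe at a mean of 2.14. Of the receptors for the hormones involved, the growth hormone receptor Ghr was middling at 3.85, 3.87 and 3.86, while the oestrogen receptor Esr1 was above background on 1 array.

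Conjugating enzymes, which attach glucuronic acid, sulfate, glutathione or acetyl groups, were detected in 42 of 44 cases and bright in 13. Over all named genes 63.1% were detected and 7.48% bright. Ugt1a6, which glucuronidates small phenols, gave 7.94, 7.93 and 7.95. The glutathione transferase Gstm1 averaged 7.85 and the phenol sulfotransferase Sult1a1 7.02. Gstp1, the glutathione transferase that is scarce in normal adult rat hepatocytes and a marker of early liver tumours, was middling at 4.24, 4.25 and 4.32. The hydroxysteroid sulfotransferase Sult2a1 was dim at -3.17, -3.54 and -3.03, and Inmt was above background on 0 arrays.

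Enzymes of nitrogen metabolism were bright at the end of the urea cycle and dimmer at its start. Arginase 1 (Arg1), Asl and Ass1 had means of 6.34, 5.92 and 5.80. Ornithine transcarbamylase (Otc) was middling at 0.78, 0.85 and 0.86, and the entry enzyme Cps1 was dim at -0.53, -0.39 and -0.31. These are signals of different probes, so the order may be one of probes. Of the other amino acid enzymes, Ahcy (6.83), Bhmt (6.27) and Mat1a (5.46) of the methionine cycle were bright, tyrosine aminotransferase (Tat) was middling at 2.29, 2.30 and 2.38, and serine dehydratase (Sds) was above background on 1 array.

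In sugar metabolism, 15 of 38 genes were bright, against 7.48% of all named genes. They included both enzymes of general glycolysis, such as Ldha (8.50), Gapdh (8.03) and Pgk1 (7.78), and the liver enzymes of fructose and glycogen metabolism Khk (6.65) and Gys2 (5.47). The hexokinases Hk2 and Hk3 were above background on 0 arrays. Of the enzymes of glucose release, Fbp1 was bright (6.42), the glucose-6-phosphatase gene G6pc1 middling (1.16, 0.92 and 0.99), and the cytosolic phosphoenolpyruvate carboxykinase Pck1 above background on 1 array (-5.22, -4.77 and -4.89). Its mitochondrial counterpart Pck2 was bright at 4.95.

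Every gene of fatty acid oxidation and ketogenesis was above background (30 of 30), against 63.1% of all named genes. Bright were 9 of them, against 7.48% of all named genes, led by Acadl (6.66), Acaa1a (5.61) and Hadh (5.49). Cpt1a, which controls fatty acid entry into mitochondria, was middling at 1.37, 1.29 and 1.30. Acot1 was the dimmest at -3.69.

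Lipid synthesis was detected to a similar extent, in 35 of 36 genes with 9 bright, beside 63.1% detected and 7.48% bright over all named genes. The stearoyl-CoA desaturase Scd was the brightest at 8.04, 8.04 and 8.02. Fdps (6.92), Hmgcs1 (6.33, 6.32 and 6.31) and Msmo1 (6.14) of cholesterol synthesis were bright. Fatty acid synthase (Fasn) averaged 3.78. Acacb, which makes the malonyl-CoA that restrains fatty acid oxidation, was dim at -3.29.

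Bile acid synthesis was split. Cyp27a1, which starts the acidic route, gave 6.79, 6.79 and 6.76, and Baat, which joins bile acids to taurine or glycine, gave 4.56, 4.69 and 4.65. The lipid carrier Scp2, which also serves bile acid side chain shortening, averaged 7.69. In contrast Cyp7a1, the rate-limiting enzyme of the classic route, and Cyp8b1, which sets the share of cholic acid, were above background on 0 of 3 arrays, and Cyp7b1 of the acidic route was dim at -3.55, -3.06 and -3.85. The values of Cyp7a1 (-6.07, -6.87 and -5.91) and Cyp8b1 (-6.17, -5.11 and -5.30) are therefore upper bounds.

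**Figure D2:**
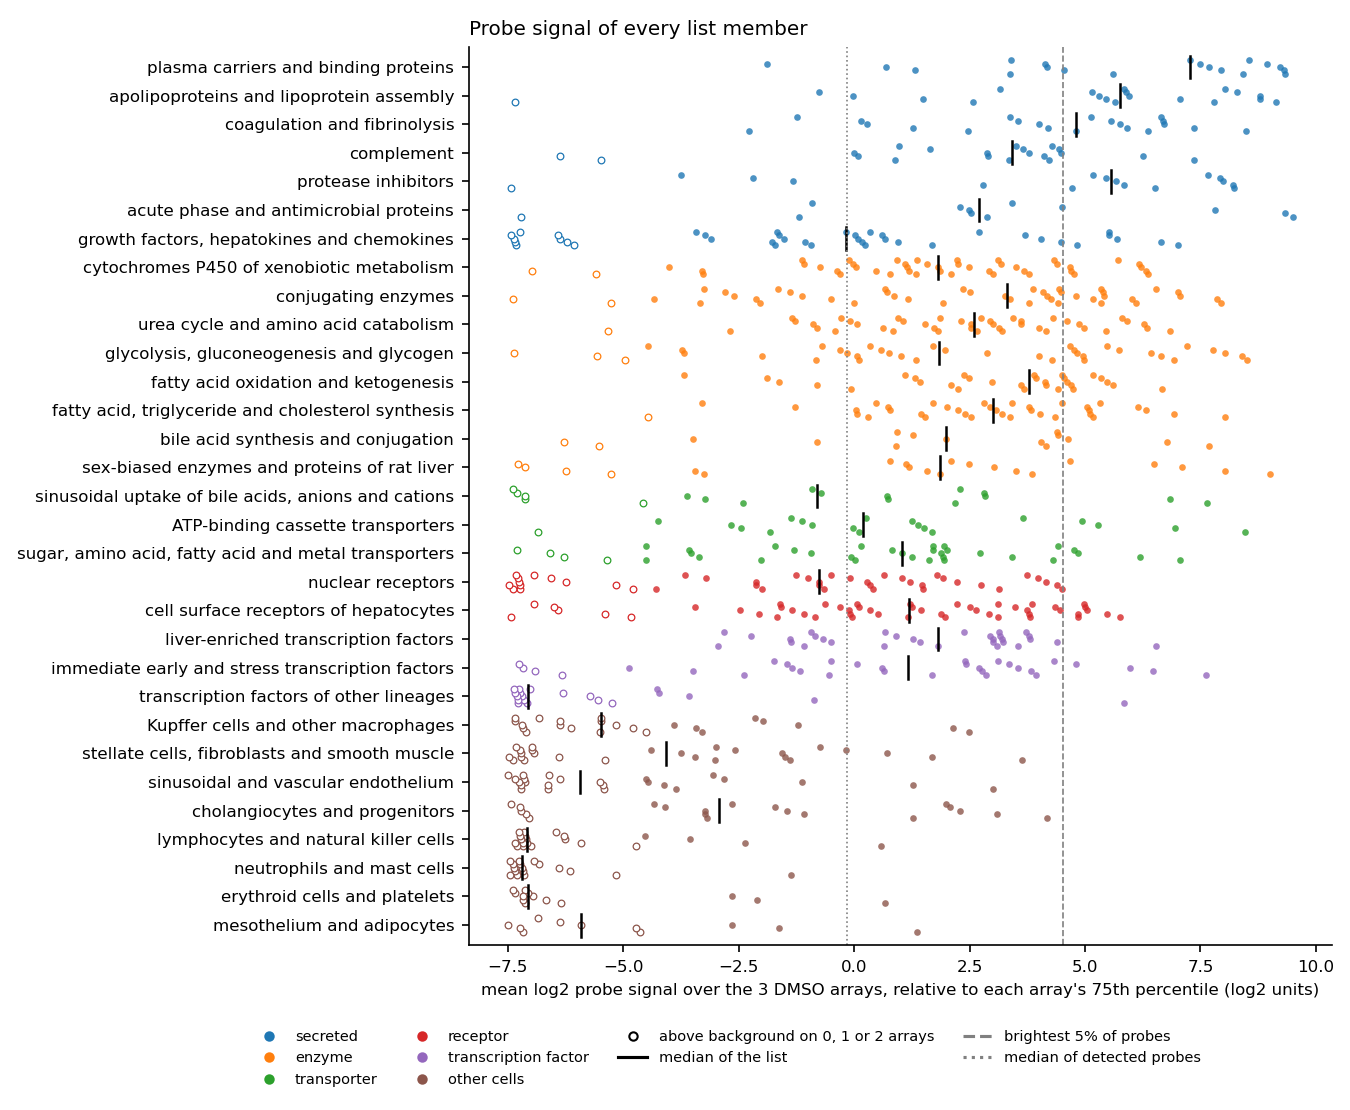
Mean log2 probe signal over the 3 DMSO arrays (x axis, log2 units relative to the 75th percentile of each array) of every list member with a named probe, 1 row for each list. Filled points were above background on all 3 arrays and open points on fewer, a black bar is the median of the list, and points are spread vertically only to be visible. Plasma carriers (median 7.27) lie furthest right, and the lists of other cells lie left of the dotted line, with medians from -7.20 to -2.92.

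Of 73 transporter genes, 63 were above background on all 3 arrays and 10 were bright (13.7%). The shares over all named genes were 63.1% and 7.48%. Of the export pumps of the ATP-binding cassette family, 4 of 20 were bright. Abcc2, which exports conjugates such as bilirubin glucuronide, gave 8.50, 8.46 and 8.45. The drug pump Abcb1b, known to be induced in cultured rat hepatocytes, gave 6.95, 6.89 and 7.03. The bile salt export pump Abcb11 gave 4.92, 4.96 and 4.95. The phospholipid flippase Abcb4 averaged -0.03, the basolateral pump Abcc3 was dim (-1.42, -1.41 and -1.25), and the sterol exporters Abcg8 (-2.67) and Abcg5 (-4.25) were dimmer still in probe signal.

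In the list of carriers of bile acids, organic anions and cations, mostly for uptake from blood, 13 of 18 were above background and 2 bright. Over all named genes these shares were 63.1% and 7.48%. The bright ones were Slc22a8 (7.67, 7.62 and 7.63), an organic anion carrier best known from the kidney, and Slc22a18 (6.83). The sodium-dependent bile acid carrier Slc10a1 was middling at 0.61, 0.78 and 0.76, and the organic anion carriers Slco1b2 (-0.82, -0.67 and -0.64) and Slco1a1 (-0.91, -0.86 and -0.98) were dim. The cation carriers Slc22a3 and Slc22a2 were above background on 0 arrays, as were Slc51a, a subunit of a basolateral bile acid exporter, and Slc47a1, which exports cations into bile.

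Against 63.1% and 7.48% of all named genes, the carriers of nutrients were detected in 31 of 35 cases and bright in 4. Those were the amino acid carrier Slc38a4 (7.05), the hepatocyte glucose carrier Slc2a2 (6.16, 6.20 and 6.22), the iron exporter Slc40a1 (4.85) and the fatty acid carrier Cd36 (4.76). The general glucose carrier Slc2a1 was middling at 1.70 on each array, and Slc2a3 was above background on 0 arrays. Slc7a5 (-3.59), a carrier of large neutral amino acids, was dim.

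Of 93 receptor genes, 75 were above background on all 3 arrays, 80.6% against 63.1% of all named genes. Bright were 7, a share of 7.53% beside 7.48% of all named genes. The bright ones were all cell surface proteins: Pigr, which carries IgA into bile (5.81, 5.74 and 5.70), Cd81 (5.47), the TWEAK receptor Tnfrsf12a (5.04), Igf2r (5.01), the shared signal chain of interleukin 6 receptors Il6st (4.97), the asialoglycoprotein receptor Asgr1 (4.86, 4.89 and 4.78) and the iron sensor Tfr2 (4.84). The HGF receptor Met (4.46) and the glucagon receptor Gcgr (4.35) stood just outside the bright class. The insulin receptor Insr was dim at -1.72, -1.49 and -1.52. Igf1r, Adra1a, Gipr, Glp1r and Pth1r were above background on 0 arrays.

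Nuclear receptors, the transcription factors that bind hormones, bile acids and drugs, had 0 bright members of 43, with 19 middling and 12 dim. Of all named genes 7.48% were bright. Above background on all 3 arrays were 72.1% of these receptors, against 63.1% of all named genes. The pregnane X receptor Nr1i2 gave 4.47, 4.54 and 4.51. Hnf4a, the factor that keeps the hepatocyte programme, gave 4.34, 4.41 and 4.39 by its brightest of 3 probes. The bile acid receptor Nr1h4 gave 3.13, 3.15 and 3.13. The constitutive androstane receptor Nr1i3, the partner of Nr1i2 in drug sensing, was dim at -0.54, -0.38 and -0.61, as were Ppara (-0.67, -0.69 and -0.62), the sensor of fatty acids, and the repressor Nr0b2 (-2.21, -1.76 and -2.01). Among those above background on 0 arrays were Esrrb, Esr2, Pgr, Nr2e1, Nr4a3, Esrrg, Nr5a1 and Rorb.

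The liver-enriched transcription factors were all detected, 31 of 31, against 63.1% of all named genes. Only 1 was bright, beside 7.48% of all named genes: Prox1 (6.60, 6.49 and 6.54), which is needed for hepatocyte growth in the embryo. Cebpb (3.80), Cebpa (3.56), Onecut1 (3.10) and Foxa2 (3.01) were middling. Foxa3 (-1.37) and Foxa1 (-1.40) were dim.

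Of 32 stress and immediate early factors, 28 were above background on all 3 arrays, 87.5% against 63.1% of all named genes. Bright were 4, beside 7.48% of all named genes. The median of this list was 1.17, under the 1.82 of the liver-enriched factors. Atf5 (7.69, 7.63 and 7.56), Atf4 (6.49, 6.46 and 6.48) and Ddit3 (4.89, 4.77 and 4.77), factors of the integrated stress response, were bright, and so was Jund (5.97). Myc gave 3.35, 3.39 and 3.35. Fos, Fosb, Klf2 and Mycn, of which the first 3 are genes of an immediate early or flow response, were above background on 0 arrays, and Egr1 was dim at -1.74. Of 20 factors of other lineages, 15 were above background on 0 arrays, against 33.5% of all named genes. The other 5 were above it on all 3 arrays, Pou5f1 (-0.86), Sox10 (-3.59), Foxp3 (-4.23) and Myog (-4.26) as dim genes and Tbx21, the factor of type 1 helper T cells, as a bright one. Tbx21 had a single probe, at 5.93, 5.82 and 5.77, although the T cell genes Cd3e, Cd3g and Cd2 were above background on 0 arrays.

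**Figure D3:**
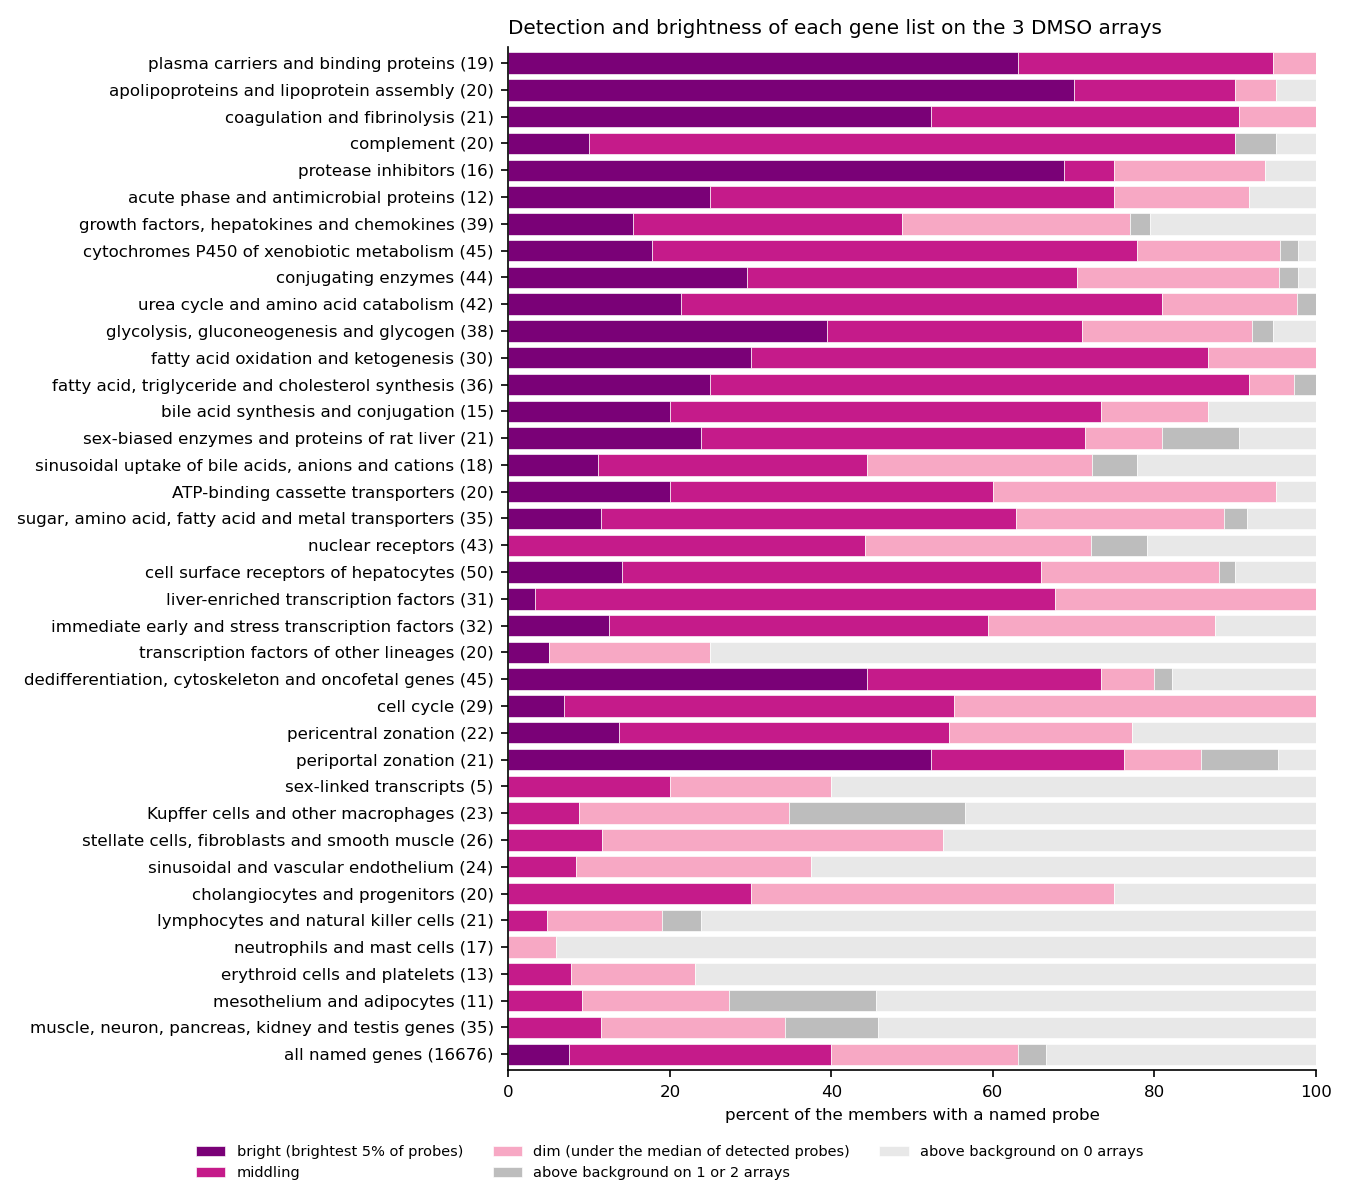
Percent of the members with a named probe (x axis) that were bright, middling, dim, above background on 1 or 2 arrays, or above it on 0 arrays, 1 bar for each of 37 lists and for all 16676 named genes, with the number of members in brackets. Plasma carriers, lipoprotein genes and protease inhibitors have the longest bright stretches, and the 8 lists of other cells have none.

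A list of genes of the cytoskeleton, of dedifferentiation and of the fetal liver holds genes known to rise when hepatocytes flatten in culture. Of its 45 genes, 36 were above background on all 3 arrays and 20 were bright, against 63.1% and 7.48% of all named genes. Among the bright ones were the hepatocyte keratins Krt18 (9.40, 9.34 and 9.29) and Krt8 (7.21) and annexin A2 (Anxa2, 8.80, 8.74 and 8.69). The actins Actg1 (8.63) and Actb (7.68), which many cell types express, were bright as well. Vimentin (Vim), the filament of mesenchymal cells, was middling at 3.49, 3.37 and 3.41. Pkm (-2.01), Lgals1 (-2.04) and Krt7 (-4.33) were dim. On 0 arrays were 8 members above background: the fetal genes H19, Dlk1 and Igf2bp1, and Krt19, Krt23, Spp1, Hk2 and Tubb2b. Over all named genes 33.5% were on 0 arrays. No freshly isolated liver or cells were measured, so whether these levels differ from those before plating was not tested.

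All 29 cell cycle genes with a probe were above background, against 63.1% of all named genes. Of these, 2 were bright, a share near the 7.48% of all named genes. Ccnd1, the cyclin of the first growth phase, gave 4.65, 4.60 and 4.64, and the cell cycle inhibitor Cdkn1a 4.59, 4.58 and 4.55. The proliferation marker Mki67 was middling at 0.38, 0.32 and 0.35, and genes of mitosis such as Ccnb1 (-1.61), Birc5 (-1.87) and Aurkb (-3.66) were dim.

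In 2 lists for the ends of the lobule, periportal and pericentral, 11 of 21 and 3 of 22 genes were bright, beside 7.48% of all named genes. The place of each gene in the lobule was taken as listed and was not tested. Bright members of the periportal list included Hamp, Apoa4, Arg1, Ass1 and Hal (4.61), while Cps1 was dim, Pck1 and Sds were above background on 1 array and Spp1 on 0. The bright pericentral genes were Lect2, Cyp27a1 and Aldh3a2 (6.19). Glutamine synthetase (Glul) was middling at 1.57, 1.42 and 1.58, and Axin2, Lgr5, Rnf43, Cyp7a1 and Slc22a3 were above background on 0 arrays. Axin2, Lgr5 and Rnf43 are known targets of Wnt signals, which in liver come from endothelial cells of the central vein. Other Wnt targets of the same list were above background on all 3 arrays. Of these, Sp5 was middling (mean 1.35), and Notum (-2.61) and Tbx3 (-2.95) were dim. The lists differ in the plasma protein genes they hold, and the difference was not tested.

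Markers of other liver and blood cells were together less often detected than named genes at large, though the lists differed: of 155 with a probe, 57 were above background on all 3 arrays (36.8%, against 63.1% of all named genes), 0 were bright, 41 were dim and 90 were above background on 0 arrays. In RNA from a whole culture, fewer cells of a type and less RNA per cell cannot be told apart. Hepatocytes express some of the listed genes themselves.

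Of 23 macrophage markers, 8 were above background on all 3 arrays (34.8%, against 63.1% of all named genes). Another 5 were above it on 1 or 2 arrays and 10 on 0, the latter beside 33.5% of all named genes. With a weaker flag for background, 15 were above it on all 3 arrays. Cd14 (2.49) and Lyz2 (2.15) were middling. Cd68, a lysosomal protein of macrophages, was dim at -1.12, -1.31 and -1.24. The Kupffer cell lectin Clec4f was dim at -3.14, -4.60 and -3.96 and lowest in DMSO replicate 2, as were C1qb (-1.66, -2.29 and -1.97), Tyrobp (-3.23, -3.82 and -3.25) and Ctss (-3.45, -6.12 and -3.95), which was above background on 2 arrays, so that its lowest value is a bound. The leukocyte marker Ptprc and the macrophage markers Adgre1, Marco, Cd163, Vsig4, Cd5l, Mrc1, C1qc, Cybb and Spi1 were above background on 0 arrays. Summed on the linear scale over the 23 markers, the signal was 11.4, 11.4 and 11.8 times the 75th percentile of the array, a sum that Cd14 and Lyz2 dominate.

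Of 26 markers of stellate cells, fibroblasts and smooth muscle, 14 were above background on all 3 arrays (53.8%, against 63.1% of all named genes). Another 12 were not above it on any array, as were 33.5% of all named genes. Tagln (3.74, 3.53 and 3.62), Timp1 (1.68) and the collagen chain Col1a2 (0.58, 1.02 and 0.54) were middling. Col1a1 was dim at -3.57, -3.80 and -3.88, as were Des (-3.02), the muscle-type filament of rat stellate cells, and Acta2 (-2.59). Lrat, Pdgfrb, Pdgfra, Dcn, Lum and Hand2, among them the retinoid enzyme that marks quiescent stellate cells, were above background on 0 arrays.

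Endothelial markers were above background on all 3 arrays in 9 of 24 cases (37.5%, against 63.1% of all named genes). Vwf (3.05, 2.97 and 2.97) and F8 (1.28) were middling, Cdh5 (-3.05), Kdr (-4.46) and Gpr182 (-4.51) were dim, and Stab2, Pecam1, Lyve1, Plvap, Oit3 and Tie1 were above background on 0 arrays. Bile duct and progenitor markers were detected in 15 of 20 cases, or 75%, above the 63.1% of all named genes, with Anxa4 (4.17), Slc10a2 (2.29) and Epcam (1.25, 1.34 and 1.25) middling and Sox9 (-1.45) and Krt7 (-4.33) dim. Their defining keratin Krt19 was above background on 0 arrays, as were Spp1 and Cftr.

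Blood cell markers were mostly undetected, on 0 arrays for 16 of 21 genes of lymphocytes and natural killer cells, 16 of 17 of neutrophils and mast cells, and 10 of 13 of red cells and platelets. Over all named genes this share was 33.5%. The chemokine Ccl5, made by T cells but also by other cells, was middling at 0.19, 0.60 and 0.95. Hba-a1, a haemoglobin chain, was middling at 0.66, while Hbb, Hba-a2 and the red cell enzyme Alas2 were above background on 0 arrays. Of 35 genes of muscle, nerve, pancreas, kidney and testis, 12 were above background on all 3 arrays (34.3%, against 63.1% of all named genes). The neurofilament gene Nefl was the brightest (2.28).

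The 3 arrays were close to each other. The median absolute difference of a probe was 0.0663 log2 units between replicates 1 and 2, 0.0775 between 1 and 3, and 0.0643 between 2 and 3. When the 23575 probes above background on all 3 arrays were put into 5 groups of 4715 by brightness, the median SD was 0.165, 0.0917, 0.0571, 0.0427 and 0.0330 from the dimmest group to the brightest. Only 70 probes had a range over 1 log2 unit, 54 of them in the dimmest group. For 1174 probes printed 10 times on each array, the median SD over spots of 1 array was 0.0490 and that between the arrays, after spots were averaged, 0.0325.

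The 5 named genes with the highest SD are known to be induced by interferon, as were 9 of the 25 most variable named genes. Interferons are secreted signals of virus infection, whose receptors drive STAT and IRF proteins to a DNA element in a set of antiviral genes. Rsad2, which makes a nucleotide that stops viral RNA synthesis, was at 1.26, 1.31 and 4.24. A second, dimmer probe of Rsad2 had the same pattern, at -4.57, -3.99 and -1.97. The signal of both was high in DMSO replicate 3 alone.

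The next most variable genes were Ifit3, which helps to block foreign RNA, at -2.49, -2.33 and 0.04, and the chemokine Cxcl10, which draws T cells, at -0.51, -0.84 and 1.61. Isg15, a ubiquitin-like protein, was at 4.07, 3.37 and 4.85. Each was highest in replicate 3, and Cxcl10 and Isg15 were lowest in replicate 2. The antiviral dynamin-like GTPase Mx1 (0.53, 0.16 and 1.48), Usp18, which removes Isg15 from proteins (2.27, 1.85 and 2.95), and the oligoadenylate synthetase Oas1a (2.13, 1.67 and 2.42) had the same order. Oasl2 of the same family had an SD of 0.966, the fourth highest. Mx2, the brightest of the group, was at 6.85, 6.38 and 7.14. Irf7, a factor that raises interferon transcription, was at 4.34, 3.76 and 4.40, low in replicate 2 but close in the other pair.

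A list of interferon-stimulated genes was drawn up after this was seen, so its counts describe these arrays and are no independent evidence. Of its 64 symbols, 58 had a probe and 54 were above background on all 3 arrays. It held 14 of the 25 most variable genes in the brighter part of the array and 9 of the 25 most variable of all. Of the 54, 28 had an SD above 0.214, the level that 95% of the 10521 named genes above background on all 3 arrays stay under, and 36 were highest in replicate 3 and lowest in replicate 2, against 15.6% of those 10521. The median of replicate 3 minus replicate 2 was 0.40 log2 units, beside a median near 0 over the 10521. The median SD of the list was 0.231, and 0.104 when replicate 3 was left out. The SD of Rsad2 was 1.71, and 0.0380 when replicate 3 was left out. Replicate 2 set most of the SD of Irf7 (0.354, and 0.0425 without it).

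**Figure D4:**
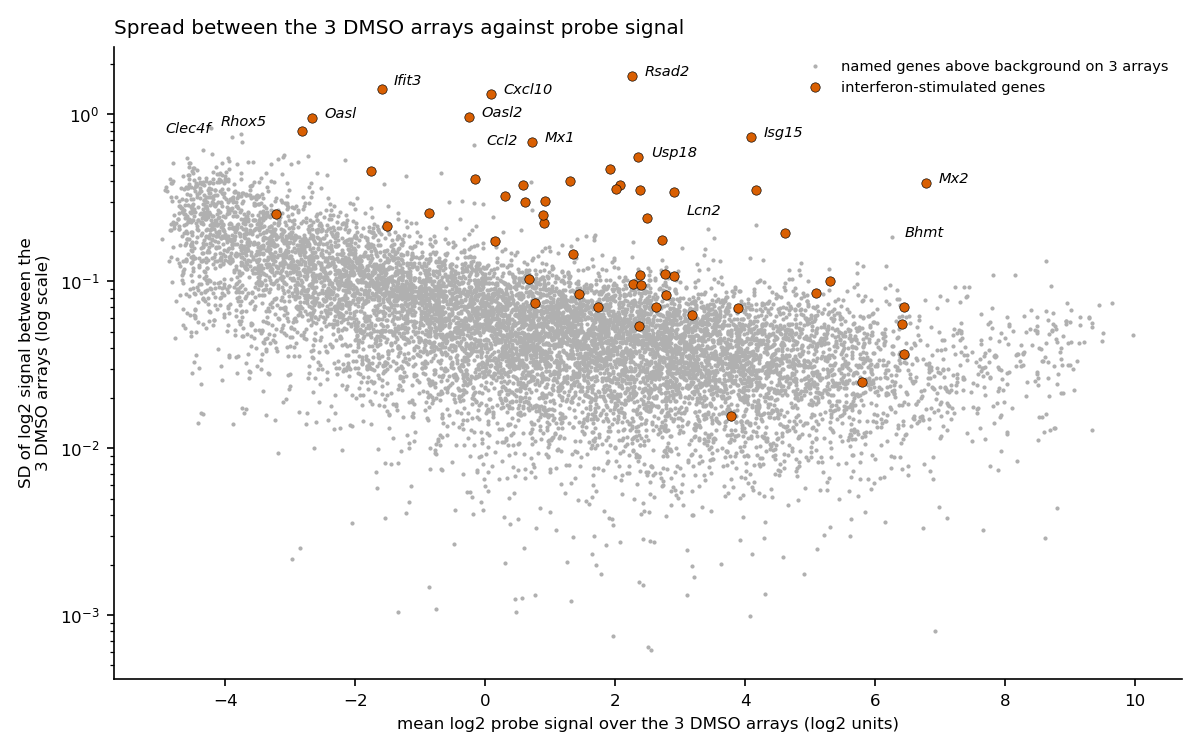
SD of the log2 signal between the 3 DMSO arrays (y axis, log scale) against the mean log2 signal (x axis, log2 units) for the 10521 named genes above background on all 3 arrays, with the 54 interferon-stimulated genes in orange. The spread narrows as the signal grows, and Rsad2, Isg15, Usp18 and Mx2 stand above the other genes of their brightness.

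Not every interferon-stimulated gene varied. Oas1b was at 5.81, 5.77 and 5.82, B2m, the light chain of class I histocompatibility proteins, averaged 6.44 with an SD of 0.0366, and Trim25 averaged 3.79 with an SD of 0.0156. Ifit1 was above background on 0 arrays. Of the genes upstream, Irf3 (4.66, 4.65 and 4.63), Jak1 (5.44), Mavs (2.42) and the receptor chain Ifnar1 (-0.63) were above background with little spread. Interferon beta (Ifnb1) was above background on 1 of 3 arrays, at -5.81, -7.20 and -5.18, so that its values on the other 2 arrays are bounds, and interferon gamma (Ifng) on 0. Interferon kappa (Ifnk) was dim on all 3 arrays by 1 of its 2 probes, at -2.32, -2.16 and -2.62, lowest in replicate 3.

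The element that the STAT and IRF proteins bind was searched as GAAANNGAAA on both strands in the same promoter windows. It is shown for 5 genes picked, because they hold it, from the 25 most variable genes in the brighter part. This motif too was chosen after the values were seen. Capitals mark the first match in each stretch, which reads TTTCNNTTTC where the match is on the other strand.

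Rsad2, chr6:48788233-48788292, first match 147 bases before the start site: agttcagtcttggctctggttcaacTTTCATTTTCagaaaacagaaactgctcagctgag

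Irf7, chr1:205800058-205800117, first match 69 bases before the start site: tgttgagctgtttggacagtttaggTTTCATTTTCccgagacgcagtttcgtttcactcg

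Ifi44, chr2:243303832-243303891, first of 2 matches 26 bases before the start site: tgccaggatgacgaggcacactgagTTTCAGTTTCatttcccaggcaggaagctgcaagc

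Oas1a, chr12:41330400-41330459, first match 41 bases before the start site: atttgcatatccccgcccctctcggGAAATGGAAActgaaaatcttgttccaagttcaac

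Parp14, chr11:78408033-78408092, first match 76 bases before the start site: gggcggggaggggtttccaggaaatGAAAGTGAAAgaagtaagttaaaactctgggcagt

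The motif stood in 28 of 44 interferon-stimulated genes that were above background and had a promoter in the table (63.6%), in 3.02% of the 8713 such promoters of all named genes above background, and in 3.77% of all 27457. Among the 44 it stood in 14 of 20 with an SD above 0.214 and in 14 of 24 of the steadier ones. Of the 25 most variable brighter genes, 15 had a promoter and 8 of those held the motif, while Cmpk2, itself interferon-stimulated and at 1.73, 1.58 and 2.45, did not hold these letters in this window.

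Markers of macrophages, stellate cells and bile ducts differed less between the arrays, and most of the detected ones were dim. Their median SD was 0.109 for macrophage, 0.124 for stellate and fibroblast, and 0.0907 for bile duct and progenitor markers. For the 2 dimmest of the 5 groups of detected probes it was 0.165 and 0.0917. The 8 detected macrophage markers had median deviations from their means of 0.10, -0.11 and -0.00 log2 units in replicates 1, 2 and 3, and 5 of them were lowest in replicate 2, as were 33.1% of all named genes above background on all 3 arrays. The 14 detected stellate and fibroblast markers had median deviations of -0.04, 0.09 and -0.12, and 9 of them were highest in replicate 2, as were 27.3% of those genes. The 15 detected bile duct and progenitor markers had median deviations of 0.07, -0.00 and -0.04, and 11 of them were highest in replicate 1, as were 40.3% of those genes. For the interferon-stimulated genes the same medians were -0.01, -0.17 and 0.24. Of the 11 detected genes in a list of matrix genes, also drawn up after the values were seen, 6 were highest in replicate 2, among them Bgn (0.58, 1.14 and 0.38) and Sparc (-0.37, 0.17 and -0.32). Another 3 were highest in replicate 1, among them Fn1 (8.30, 8.24 and 8.22), and 2 in replicate 3. The summed signal of the interferon-stimulated list was 739, 657 and 804 times the 75th percentile. The part of these cells in the interferon pattern was not tested.

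**Figure D5:**
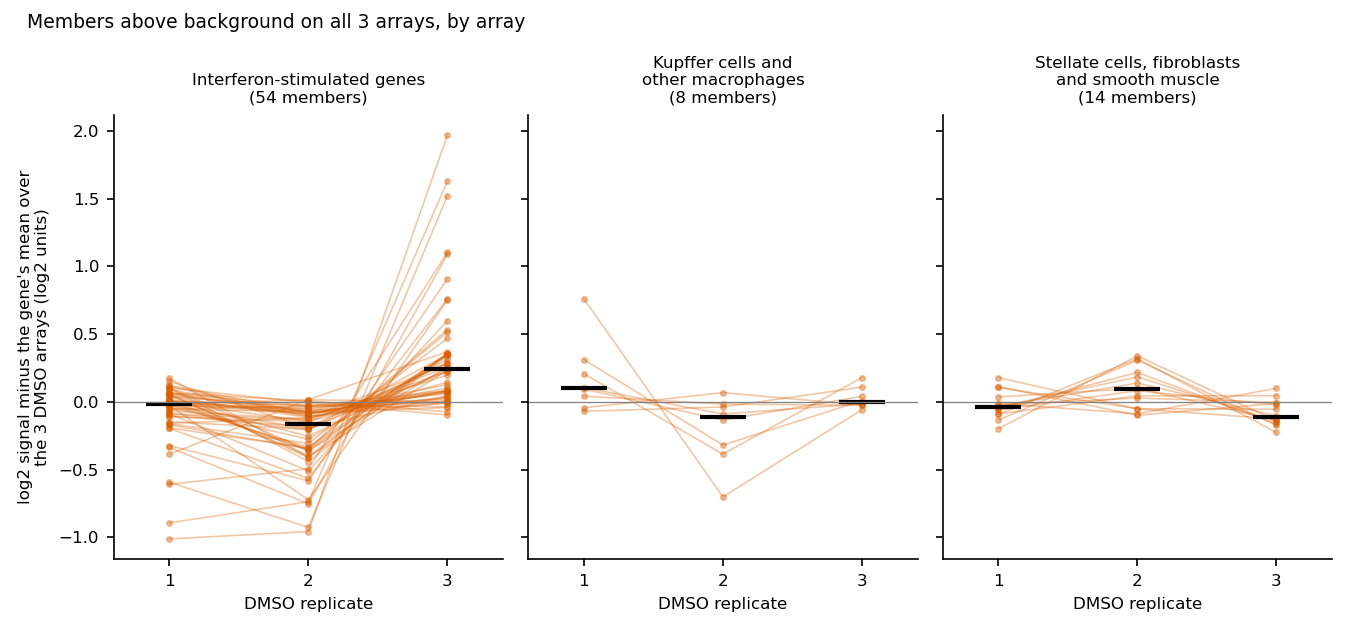
Log2 signal minus the mean of the gene over the 3 DMSO arrays (y axis, log2 units) in each DMSO replicate (x axis) for members above background on all 3 arrays, with 1 line for each gene and a black bar at the median. The lines join values of 1 gene and mark no order of the replicates. The interferon-stimulated genes are high in replicate 3, with medians of -0.01, -0.17 and 0.24, the 8 macrophage markers have medians of 0.10, -0.11 and -0.00, and 9 of the 14 stellate and fibroblast markers are highest in replicate 2.

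Other variable genes were dim or had other patterns. Ccl2, a chemokine for monocytes, was at -0.77, -0.30 and 0.53, and Cx3cl1 at -3.66, -3.11 and -2.51, both highest in replicate 3. Both were printed 10 times, and their SD over spots of 1 array was 0.0712 and 0.175, under the SD between the arrays of 0.659 and 0.575. Rhox5, a homeobox gene known from testis, was high in replicate 2 at -4.77, -3.27 and -4.74. Among brighter genes outside the interferon list, Lcn2 and the methyltransferase Bhmt (6.05, 6.36 and 6.39) were lowest in replicate 1, and the SD of Bhmt was 0.0232 without that replicate against 0.185 with it. Taf15 had an SD of 0.183 by its brightest probe, whereas its second probe had an SD of 0.0156.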

How the data were processed

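RNA was measured on 1-colour Agilent rat arrays, and only the 3 DMSO arrays of 12 were used. The deposited intensity of each spot came from Agilent Feature Extraction 10.7.1.1, whose statistics record background subtraction and detrending fits, per the file headers. That spots without significant signal were lifted to a narrow band of positive values was read from the values themselves. The authors also deposited a table of linear signal, scaled to a 75th percentile of 1 for every array, whose log2 values correlated with those of the scanner at 0.999939 to 0.999963. The deposited spot flags are marks of 0 or 1. The array design was made for the rn4 build, per the file headers.

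Spots of a probe were averaged as log2 intensity, 6, 4 and 8 non-uniform spots were left out, and the 75th percentile of each array was subtracted. A probe counted as above background when over 0.5 of its spots carried the flag for signal well above background. Of 45595 usable probes (3 had none), 21227 took a symbol from a rat RefSeq table (GRCr8, names and promoters only) and 24368 did not. Values at or under background have no order. The number of arrays, 3, limits the precision, and with 1 group there was no test. The 37 gene lists (978 symbols, 905 with a probe) and the arrays were chosen with earlier results of these data known. Named are the 40 brightest genes, the ends of each list, the 25 most variable genes overall and in the brighter part, and 19 marker genes fixed whatever their value. Other list members were named for their known role after their values were seen. Scripts in Python 3.11.15 (pandas 2.3.3, numpy 2.4.6, matplotlib 3.10.9) and R 4.3.3 (limma 3.58.1) were tested on simulated data. The alternatives were other background flags, background corrections, scalings, probes per gene, thresholds, the value table and leaving out each array. The background-correction alternative used median instead of mean spot signals, since the columns read hold medians. Some genes that these rules name are not reported here.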

Additional observations from a re-analysis of the deposited data

How the results depend on the processing

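The total counts of probes, named genes and list members above background kept within 1.5 times their value under each setting tried. Counts for 6 single lists did not with the weaker background flag. The number of probes with a range over 1 log2 unit (70) did not stay so close: it was 1534 with the weaker background flag, 223 with probes above background on at least 2 arrays and 3833 with no filter, settings that admit more dim probes. It was 9 with normexp background correction, chosen after the files were seen; the cause was not tested. The planned normexp on mean signals was not run. Without a filter the median SD was 0.178. With the brightest 10% called bright, 285 list members were bright in place of 173. With normexp, the SD over spots was 0.132 in place of 0.0490; the cause was not tested. Leaving out each array gave 16 to 45 such probes, and a median SD of the interferon-stimulated genes of 0.104 (without replicate 3) to 0.282. An SD over 2 arrays is not on the same footing as one over 3. Of 717 values for single genes and lists, 687 stayed within 1.5 times. With the weaker flag, members detected numbered 15 in place of 8 for macrophages, 8 in place of 4 for lymphocytes, 3 in place of 1 for neutrophils, 7 in place of 3 for mesothelium and adipocytes, 19 in place of 12 for other tissues and 9 in place of 5 for factors of other lineages. Dim probes limit the account: the dimmest group of probes had a median SD of 0.165. No paired analysis was possible because only 1 group was described and no test was made.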
